A study of Mus musculus with 8 samples.

Results

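The spinal interneuron identity factors are 9 transcription factor genes, each used in the developing spinal cord to mark and specify 1 or more classes of interneuron. They are Barhl1, Barhl2, Pou4f1, Tlx3, Lbx1, Evx1, En1, Gata3 and Sim1. They were chosen by name, as every probe other than a control probe whose gene name on the array equals one of these symbols. The 9 genes were read by 11 probes, out of 36511 named genes and 55664 probes on the array. Of the 9, 6 passed the filter on dim probes, which asks for a signal well above background on each array of some group, and were tested (Barhl1, Pou4f1, Tlx3, Lbx1, Evx1 and Gata3), among 28940 tested genes. Barhl2, En1 and Sim1 were not well above background on any of the 8 arrays.

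The study compared mouse embryos of strain C57BL/6 at E10.5 that were wild type or carried a conditional loss of Geminin (labelled fl/fl; cre/o). Geminin, encoded by Gmnn, restrains the licensing of replication origins by binding Cdt1. Spinal neural tube and the neighbouring paraxial tissue were cut out separately by laser capture microdissection, and the RNA of each was hybridised to its own 1-colour Agilent array. The 8 arrays form 4 groups of 2, by genotype and tissue, from 2 wild-type and 2 mutant embryos that each gave both tissues. The labels name no driver of the cre, so the cells in which the gene was deleted are not known here, nor do they say whether the wild-type embryos carried a floxed allele or a cre. The captured paraxial tissue is a region and not a sorted cell type.

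As background, newborn neurons of the spinal cord arise in stripes along the dorsoventral axis. Each progenitor stripe gives rise to interneurons that switch on a characteristic set of homeodomain, LIM, GATA or bHLH-PAS factors as they leave the cell cycle. From dorsal to ventral, Barhl1 and Barhl2 mark the commissural dI1 neurons, and Pou4f1 (Brn3a) several dorsal classes including dI1 to dI3 and dI5. Tlx3 marks the excitatory dI3 and dI5 neurons and Lbx1 the dI4 to dI6 classes. Evx1 marks V0, En1 V1, Gata3 V2b and Sim1 V3 neurons. Several have a known second site beside the neural tube: Pou4f1 and Tlx3 in sensory ganglion neurons, Lbx1 in migrating muscle precursors, En1 and Sim1 in the dermomyotome, and Gata3 in sympathetic precursors and in epidermal ectoderm.

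The probes behind the values are shown here where a pair of probes read the same gene and gave different values, and for Tlx3 and Evx1, which had among the widest ranges across arrays. Coordinates are those of the array design (mouse build mm9), and each sequence is written 5′ to 3′ in the direction of the transcript. Both Barhl1 probes lie next to each other on the minus strand of chromosome 2, at chr2:28763200-28763239 (a design span of 40 bases for a probe of 60) and chr2:28763253-28763312. The first 30 bases of each are printed. Both Lbx1 probes lie on the minus strand of chromosome 19. A_55_P2051741 (chr19:45308588-45308647) is given whole and lies in the homeobox. A 30-base window of A_55_P2051746 (chr19:45307178-45307237) is printed. The Tlx3 probe (chr11:33102440-33102499, minus strand) also lies in the homeobox and is given whole, and a 30-base window is given of the Evx1 probe (chr6:52268298-52268357, plus strand). Capitals mark AATAAA, the hexamer of the usual polyadenylation signal, and in Tlx3 TGGTTCCA, which lies in the part of the homeobox for the recognition helix.
Barhl1 A_51_P183971: tatacggagcttccctccccatttccttta
Barhl1 A_52_P65084: ctacacggattgacttaaacccaggggata
Tlx3 A_51_P328039: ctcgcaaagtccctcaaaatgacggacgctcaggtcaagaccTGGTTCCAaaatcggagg
Lbx1 A_55_P2051741: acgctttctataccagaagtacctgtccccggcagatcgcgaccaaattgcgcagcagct
Lbx1 A_55_P2051746: cttcctccgataAATAAAgtctttgccatt
Evx1 A_55_P2125521: ttaaccatattgcAATAAAagctgaacatg

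The motifs AATAAA and TGGTTCCA were searched in the probe sequences as written, on that strand only. Of all 55664 probes, 10.1% hold AATAAA and 0.142% hold TGGTTCCA. Of the Barhl1 pair, A_51_P183971 has a GC content of 55% and A_52_P65084 of 35%, against a median of 43.3% over all probes. The Lbx1 pair has 55% (A_55_P2051741) and 41.7% (A_55_P2051746).

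The share of probes well above background ran from 71.5% to 77.9% over the arrays, and no spot was saturated. Gmnn, the targeted gene, was read at 12.30 ± 0.08 (SD, n = 2) in wild-type and 11.95 ± 0.22 in mutant neural tube, and at 12.04 ± 0.23 and 11.41 ± 0.02 in paraxial tissue. Neither genotype difference of Gmnn passed the test (-0.35 ± 0.25 and -0.63 ± 0.25, limma adjusted p = 0.921 and 0.995, unadjusted p = 0.208 and 0.0397). In each tissue both mutant values were below both wild-type values, as for 15.4% and 14.7% of all genes. Since the deleted part is not given, the probe may lie outside it and then checks nothing. Markers of both captured tissues were measured: 19 of 23 progenitor domain factors of the neural tube were higher in neural tube and, of 14 dermomyotome and migrating muscle precursor genes, 7 were higher in paraxial tissue and 2 higher in neural tube, over both genotypes, where 12.0% of all genes were called. Differentiated neuron genes were above background on every array of both tissues (17 of 17). One library stood apart in its neuronal signal: the mean of the 17 neuron genes, each centred on its mean over the 8 arrays, was -0.25 in mutant neural tube 1 against 0.72 to 0.96 on the other 3 neural tube arrays, so genotype differences are also given by embryo and without this array.

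Values below are the scaled log2 signal, in which 1 unit is a doubling. A difference is a difference of such values with the standard error of the limma model, which rests on 2 embryos per genotype. The arrays are named by genotype, tissue and embryo number. Signals of different probes are not compared with each other.

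Barhl1, a dI1 factor that acts after the progenitor factor Atoh1, was read at 9.24 and 9.01 in wild-type neural tube, 8.22 and 8.73 in mutant neural tube, 9.78 and 8.66 in wild-type paraxial tissue and 8.75 and 8.55 in mutant paraxial tissue by its brighter probe, A_51_P183971. Both mutant neural tubes were below both wild-type neural tubes, and in paraxial tissue the genotypes overlapped. Its second probe, A_52_P65084, gave 9.71 and 9.76 in wild-type neural tube, 7.74 and 8.33 in mutant neural tube, 8.31 and 8.03 in wild-type paraxial tissue, and 8.22 and 7.09 in mutant paraxial tissue, the last not well above background. On this probe wild-type neural tube was the highest group and the other groups overlapped one another. The genotype difference in neural tube was -0.65 ± 0.45 (limma adjusted p = 0.921) on the first probe. In a fit on all 42754 kept probes, added after the probes were seen to differ, it was -1.70 ± 0.57 on the second (unadjusted p = 0.0212, adjusted p = 0.918). The probes also differed in the tissue comparison within wild type, where the first gave -0.09 ± 0.28 (limma adjusted p = 0.900) and the second 1.57 ± 0.36 in that probe fit (adjusted p = 0.0813). No value here says which probe reads Barhl1 more faithfully. In bulk tissue such as this, fewer cells of a type and less RNA per cell cannot be told apart, which holds for every factor below.

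Atoh1, the progenitor factor of the dI1 lineage, was at 9.52 and 9.66 in wild-type neural tube and at 4.84 and 9.09 in mutant neural tube, with the 4.84 not well above background. Both mutant values were below both wild-type values, and with the dim reading raised to its array's lowest signal well above background (called the floor below) the difference was -1.78 ± 0.80 (limma adjusted p = 0.935). Atoh1 was not well above background on any of the 4 paraxial arrays. It passed the filter on dim probes through wild-type neural tube alone, so its genotype difference was favoured by that filter and is given as description only.

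Pou4f1, a POU homeodomain factor of dorsal interneurons and of sensory neurons, had its strongest single reading in paraxial tissue. It was at 13.36 and 13.92 in wild-type neural tube, 11.91 and 13.33 in mutant neural tube, 14.54 and 12.76 in wild-type paraxial tissue and 12.66 and 11.47 in mutant paraxial tissue. In each tissue the mutants were lower than the wild types without overlap. The genotype difference was -1.02 ± 1.09 in neural tube (95% interval -3.61 to 1.57, limma adjusted p = 0.926) and -1.59 ± 1.09 in paraxial tissue (-4.18 to 1.00, adjusted p = 0.995). Both intervals include 0. The tissue difference did not pass the limma test in wild type (-0.02 ± 0.69, adjusted p = 0.993) or in mutants (0.55 ± 0.69, adjusted p = 0.742).

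Tlx3, the homeodomain factor of excitatory dorsal neurons whose homeobox probe is printed above, was at 10.54 and 9.98 in wild-type neural tube and at 7.10 and 9.58 in mutant neural tube. The 7.10 of mutant neural tube 1 was its lowest reading and the only one not well above background. In paraxial tissue it was at 11.25 and 8.72 in wild type and at 8.85 and 8.58 in mutants. The neural tube groups did not overlap and the paraxial groups did. The genotype difference was -1.92 ± 1.19 in neural tube (95% interval -4.73 to 0.90, limma adjusted p = 0.921) and -1.27 ± 1.19 in paraxial tissue (-4.09 to 1.55, adjusted p = 0.995). Most of each difference came from the embryos numbered 1, which lay in row 1 of the slide: within that row the mutant minus wild-type value was -3.44 in neural tube and -2.41 in paraxial tissue, against -0.39 and -0.13 within row 2.

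**Figure D1:**
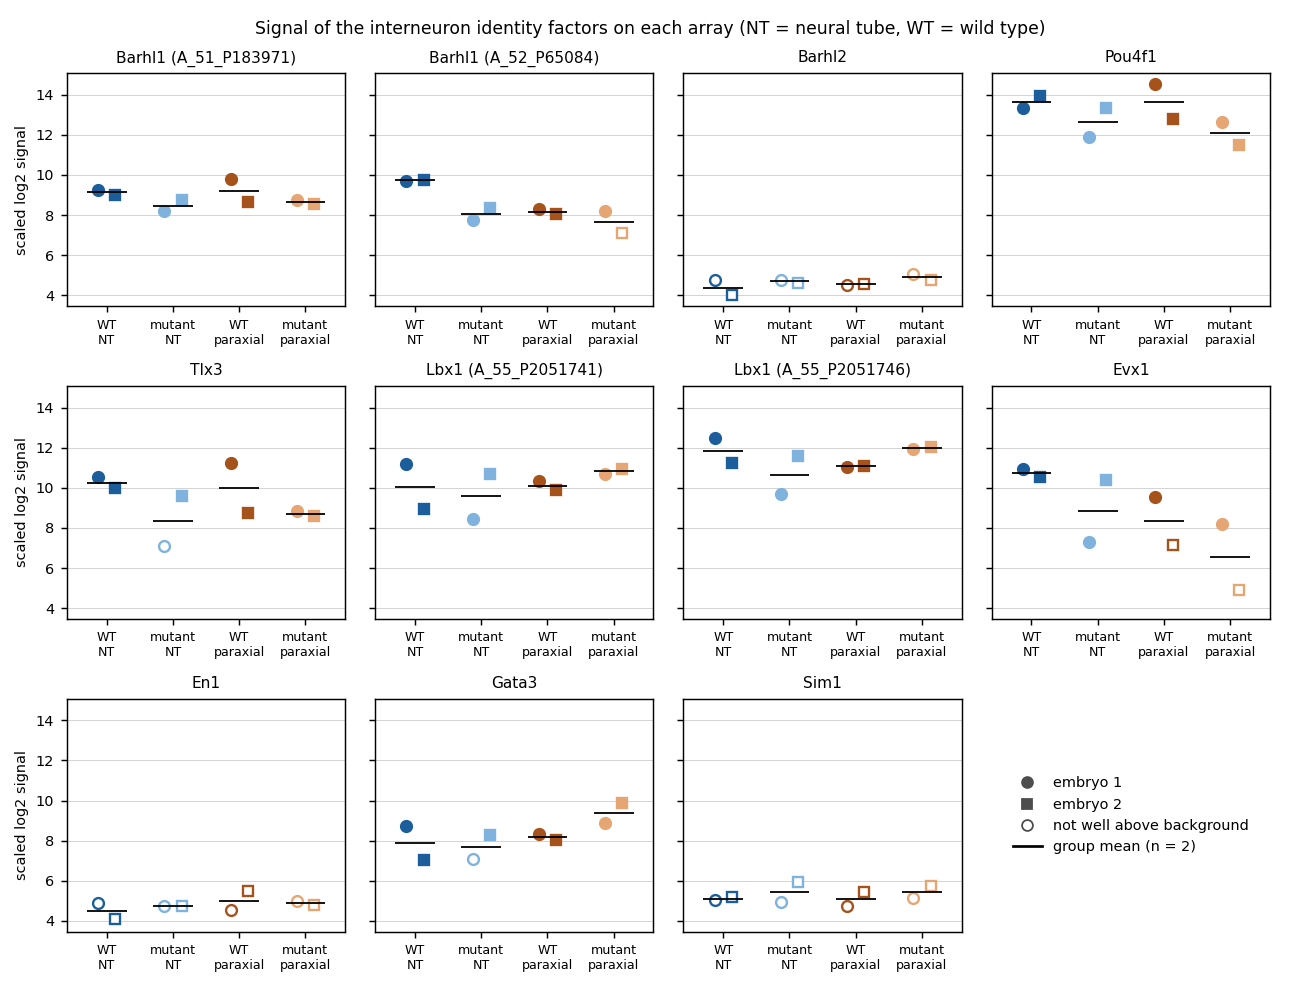
Scaled log2 signal (vertical axis) of each of the 11 probes of the 9 factors in the 4 groups, with 1 point per array, circles for embryo 1, squares for embryo 2, open symbols where the probe was not well above background, and a line at the group mean (n = 2). Barhl2, En1 and Sim1 show open symbols throughout, between 3.99 and 5.93, and mutant neural tube 1 holds the lowest Tlx3 reading (7.10).

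Lbx1, the homeodomain factor of the dI4 to dI6 classes, ran in opposite directions in the tissues. Its brighter probe, A_55_P2051746, gave 12.46 and 11.25 in wild-type neural tube, 9.69 and 11.58 in mutant neural tube, 11.04 and 11.10 in wild-type paraxial tissue and 11.95 and 12.04 in mutant paraxial tissue. The neural tube groups overlapped, and both mutant paraxial values were above both wild-type paraxial values. The homeobox probe A_55_P2051741 gave 11.16 and 8.93, 8.46 and 10.67, 10.32 and 9.90, and 10.71 and 10.93 in the same order. It had the same overlap in neural tube and the same separation in paraxial tissue.

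On the brighter Lbx1 probe the genotype difference was -1.22 ± 0.78 in neural tube (limma adjusted p = 0.921) and 0.93 ± 0.78 in paraxial tissue (95% interval -0.91 to 2.77, adjusted p = 0.995). The difference between these 2 was -2.15 ± 0.69 (unadjusted p = 0.0175, adjusted p = 0.911). The within-row values in paraxial tissue were close to each other, 0.91 in row 1 and 0.95 in row 2, while those in neural tube were -2.77 and 0.33. On the homeobox probe the fit on all kept probes gave -0.48 ± 0.99 in neural tube and 0.71 ± 0.99 in paraxial tissue (limma adjusted p = 0.955 and 0.994).

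Since Lbx1 also marks migrating muscle precursors, the dermomyotome and migrating muscle precursor list is given beside it. On its 14 tested genes the centred mean was 0.60 and 1.06 in wild-type and 0.46 and 0.53 in mutant paraxial tissue, and -1.09 to -0.34 over the 4 neural tube arrays. The summed scaled signal of the list was 286436 and 319091 in wild-type and 332447 and 324706 in mutant paraxial tissue. All 14 were well above background on every paraxial array, and no gene of the list was called between genotypes. The list's centred mean was thus not higher in the paraxial samples where Lbx1 was higher, while its summed signal was. Met, the receptor that muscle precursors need to migrate, was at 10.15 and 10.98 in wild-type and 10.64 and 11.30 in mutant paraxial tissue, which overlap (named after its values were seen). The part of such cells in the Lbx1 values was not tested.

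Evx1, the even-skipped factor of V0 commissural neurons was at 10.96 and 10.54 in wild-type neural tube, 7.31 and 10.37 in mutant neural tube, 9.53 and 7.16 in wild-type paraxial tissue and 8.20 and 4.90 in mutant paraxial tissue. The second reading of each paraxial pair was not well above background. In neural tube both mutant values were below both wild-type values, with a difference of -3.65 in row 1 and -0.18 in row 2. The genotype difference was -1.91 ± 2.06 in neural tube and -1.79 ± 2.06 in paraxial tissue (limma adjusted p = 0.926 and 0.995). The 4.90 lies below the floor of its array, 6.84, and with dim readings raised to the floor the paraxial difference was -0.82 ± 1.51 (limma adjusted p = 1.00). Evx1 was the tested factor with the largest tissue difference, 2.35 ± 0.92 higher in neural tube over both genotypes (95% interval 0.17 to 4.52, unadjusted p = 0.0380, limma adjusted p = 0.160), and it did not pass. With dim readings at the floor it was 1.86 ± 0.67 (adjusted p = 0.122). In mutant embryo 1 paraxial tissue was the higher one. Leaving out that embryo removes the readings that go the other way, so the larger differences that follow are no support for a tissue difference. Without that embryo, and with dim readings at the floor, the tissue difference was 2.97. It was 2.83 without its neural tube array alone and 2.66 without its paraxial array alone. With readings as measured these were 3.93, 3.61 and 3.63, sizes that rest on the 4.90. Over all 15 fits that leave out an array or embryo the difference ran from 0.76 to 3.93. The floor values were added after the data were seen.

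Gata3, the zinc finger factor of the inhibitory V2b neurons, was read highest in mutant paraxial tissue. It was at 8.72 and 7.04 in wild-type neural tube, 7.08 and 8.29 in mutant neural tube, 8.33 and 8.05 in wild-type paraxial tissue and 8.89 and 9.87 in mutant paraxial tissue, with the 7.08 not well above background. The first 3 groups overlapped, and both mutant paraxial values were above all other readings. In mutants neural tube differed from paraxial tissue by -1.70 ± 0.41 (95% interval -2.67 to -0.73, limma adjusted p = 0.0618), and over both genotypes by -1.004 ± 0.29 (adjusted p = 0.0712). Both sat just outside the threshold of 0.05. With arrays scaled to the median the mutant difference was -1.71 (limma adjusted p = 0.0372) and with normexp background correction -1.03 (adjusted p = 0.0288). Of 13 alternatives that keep all arrays, the mutant difference did not pass in 10. The difference over both genotypes did not pass in 11 of 13. Without wild-type neural tube 1 the difference over both genotypes was -1.38 (adjusted p = 0.0232), and without either wild-type neural tube array the mutant difference, unchanged in size, had an adjusted p of 0.0332. The genotype difference was -0.20 ± 0.65 in neural tube (adjusted p = 0.978) and 1.19 ± 0.65 in paraxial tissue (adjusted p = 0.995).

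Marker lists of other cells that use Gata3, surface ectoderm and sympathetic precursors, are set beside its paraxial values, with lists of other kinds. The 12 tested surface ectoderm genes had a centred mean of -0.44 and -0.19 in wild-type and 1.11 and 0.47 in mutant paraxial tissue, and a summed scaled signal of 254124 and 280778 against 367248 and 327071. All 12 had a positive genotype difference there, with a median of 0.67, though none was called. The 7 tested sympathetic precursor genes had centred means of -0.50 and -0.65 in wild-type and 0.14 and 0.63 in mutant paraxial tissue, with overlapping summed scaled signals of 20301 and 12666 against 17438 and 26529. Of these 7, 5 had a positive and 2 a negative genotype difference, with a median of 0.66. Of the sympathetic genes, Hand2 was at 4.37 (not well above background) and 8.46 in wild-type and 8.90 and 11.87 in mutant paraxial tissue. It is 1 gene of the 7 and does not stand for the list. Its 11.87 was read on mutant paraxial tissue 2, the array where Lhx2 (12.37), Lhx9 (13.40) and Lmx1b (14.97), of the dorsal class list, were also highest. Lists not tied to Gata3 were as uniformly positive between genotypes in paraxial tissue, 10 of 10 endothelial genes (median 0.65), 9 of 9 erythroid genes (median 0.76) and 16 of 16 p53 target genes (median 0.67), with no gene called. The part of any of these in the Gata3 values was not tested.

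Barhl2, En1 and Sim1 gave only readings below the level called well above background. Barhl2, the dI1 partner of Barhl1, was read between 3.99 and 5.04 over the 8 arrays, En1, the V1 factor, between 4.11 and 5.48, and Sim1, the V3 factor, between 4.73 and 5.93. The lowest signal of any probe well above background was 6.13 to 6.84 on the same arrays. At this sensitivity no level or difference can be given for them, which does not show that they were not transcribed.

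Between genotypes, 0 of the 6 tested factors passed the limma test in neural tube and 0 in paraxial tissue, against 0% of all 28940 genes in each (1050 and 971 genes had an unadjusted p under 0.05, and none of the 6 was among them). In neural tube all 6 differences were negative, from -1.92 for Tlx3 to -0.20 for Gata3, with a median of -1.12 against -0.01 over all genes. In paraxial tissue 4 were negative and 2, Lbx1 and Gata3, positive, with a median of -0.92 against 0.03. Both mutant arrays lay below both wild-type arrays in neural tube for 4 of the 6 (Barhl1, Pou4f1, Tlx3 and Evx1), while 15.4% of all genes tested did so. For 0 of the 6 were both above (16.5% of all genes). In paraxial tissue 1 of the 6, Pou4f1, was lower without overlap (14.7% of all genes) and 2, Lbx1 and Gata3, were higher (22.6%). The 6 share the same 8 arrays, so these counts describe the libraries and are not independent of each other.

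**Figure D2:**
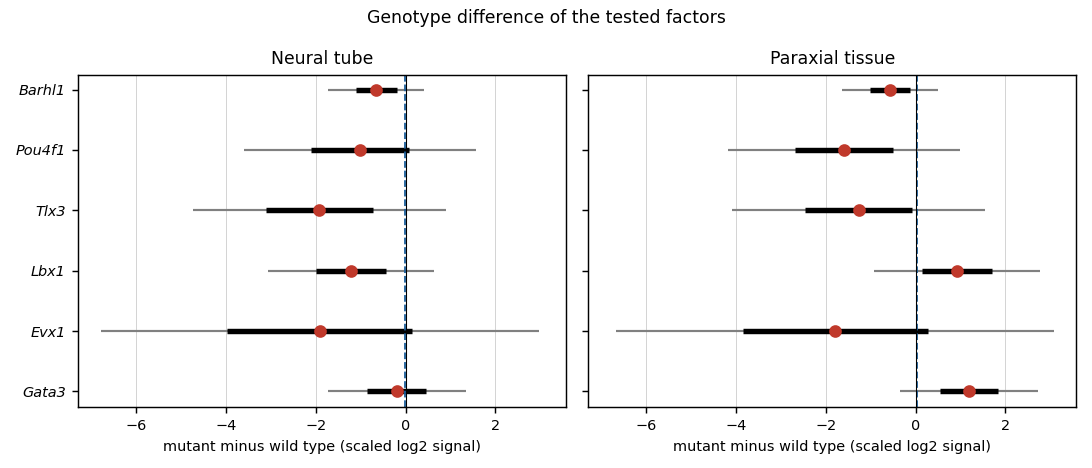
Mutant minus wild-type difference of the 6 tested factors (horizontal axis, scaled log2 signal) in neural tube (left) and paraxial tissue (right), with thick bars for the standard error and thin bars for the 95% interval of the limma model, and a dashed line at the median of all 28940 genes. Every interval includes 0, and Lbx1 and Gata3 are the factors right of 0 in paraxial tissue.

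The embryos did not contribute equally. In neural tube the mutant minus wild-type value within slide row 1 was -3.65 for Evx1, -3.44 for Tlx3, -2.77 for Lbx1, -1.64 for Gata3, -1.45 for Pou4f1 and -1.03 for Barhl1. Within row 2 it was -0.18, -0.39, 0.33, 1.24, -0.59 and -0.28 in the same order. All 6 values of row 1 were negative, and those of row 2 were smaller in size, with Lbx1 and Gata3 positive. The second Barhl1 probe kept a similar size in both rows, at -1.97 and -1.43. Fitted without mutant neural tube 1, the array low in neuron genes, the neural tube difference was -0.60 ± 0.97 for Tlx3, -0.34 ± 0.49 for Barhl1, -0.30 ± 0.58 for Lbx1, 0.0486 ± 1.01 for Pou4f1, 0.11 ± 0.76 for Gata3 and 0.61 ± 1.42 for Evx1 (0.0270 with its dim readings at the floor). Without that array 3 of the 6 fitted values were thus negative, and each was smaller in size than with it. The fit shifts the lone mutant array by the paraxial reading of its own embryo against the paraxial group mean. So the fitted values of Pou4f1 and Evx1 were above 0 while the remaining mutant readings lay below both wild-type readings. These were 13.33 against 13.36 and 13.92 for Pou4f1, and 10.37 against 10.96 and 10.54 for Evx1. Rows, embryos and replicate numbers coincide, so an effect of the row and one of the embryo cannot be told apart.

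Between tissues, 0 of the 6 passed within wild type (2.45% of all genes were called), 0 within mutants (5.85%) and 0 over both genotypes (12.0%). This was also so of the interaction, the difference of the genotype effect between tissues (0% of all genes; 1495 genes, Lbx1 and Gata3 among them, had an unadjusted p under 0.05). The median over the 6 was -0.09 over both genotypes, against -0.02 over all genes. In wild type Lbx1 and Evx1, 2 of the 6, were higher in neural tube without overlap (18.3% of all genes) and 0 were lower (16.9%). On the homeobox probe of Lbx1 the wild-type tissues overlapped. In mutants 0 were higher (16.6%) and Lbx1 and Gata3 were lower (19.6%). No tested factor was higher in neural tube in all 4 embryos, which 18.0% of all genes were.

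For Pou4f1 and Tlx3 the sign of the tissue difference followed the embryo number in both genotypes. How many of all genes did so was not counted. The numbers pair no embryos across genotypes, and the factors share the same arrays, so this is a description of the libraries. The neural tube minus paraxial value of Pou4f1 was -1.19 in wild-type embryo 1 and -0.75 in mutant embryo 1, but 1.15 and 1.86 in the embryos numbered 2. For Tlx3 it was -0.71 and -1.75 against 1.26 and 1.00. Barhl1 on its brighter probe did the same at a smaller size, with -0.53 and -0.54 against 0.34 and 0.18. Its second probe did not, with 1.40 and 1.73 in wild type and -0.48 and 1.24 in mutants. For Evx1 the value was 1.43 and at least 3.38 in wild type, and -0.89 and at least 3.53 in mutants, where the bounds set the dim paraxial reading at its own value or the floor, whichever was higher. On its brighter probe Lbx1 was higher in neural tube in both wild-type embryos (1.42 and 0.16) and lower in both mutants (-2.26 and -0.46). Its homeobox probe gave 0.85 and -0.97 in wild type and -2.24 and -0.27 in mutants. Gata3 was at 0.39 and -1.01 in wild type and -1.81 and -1.59 in mutants.

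**Figure D3:**
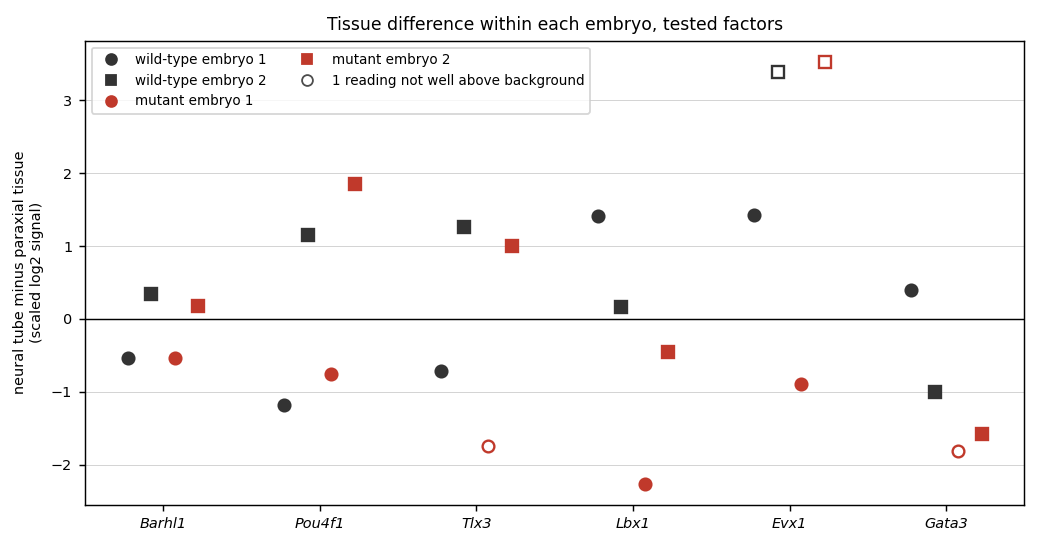
Neural tube minus paraxial tissue (vertical axis, scaled log2 signal) of the 6 tested factors in each embryo, black for wild type, red for mutant, circles for embryo 1 and squares for embryo 2, open where 1 of the 2 readings was not well above background. Barhl1 and Lbx1 are shown by their brighter probes, and dim readings below the floor are set to the floor. Barhl1, Pou4f1 and Tlx3 lie below 0 in both embryos numbered 1 and above 0 in both numbered 2, while Lbx1 lies above 0 in wild type and below 0 in mutants.

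Since Pou4f1 and Tlx3 are also sensory neuron factors, the sensory ganglion list is set beside them. Its 16 tested genes had a centred mean of 0.42 and 0.43 in wild-type neural tube, -0.43 and 0.47 in mutant neural tube, 0.61 and -0.37 in wild-type paraxial tissue and -0.42 and -0.70 in mutant paraxial tissue. The list's centred mean was thus also highest in wild-type paraxial tissue 1, where Pou4f1 and Tlx3 had their highest readings, and low in mutant neural tube 1. Its summed signal was not highest in wild-type paraxial tissue 1, at 281774 against 302478 in mutant neural tube 2. Between 13 and 16 of the 16 were well above background on each array, with summed scaled signals of 243766 to 286417 in wild-type neural tube, 238038 to 302478 in mutant neural tube, 250477 to 281774 in wild-type and 284793 to 295572 in mutant paraxial tissue. The differentiated neuron list followed a similar course in paraxial tissue, with 0.48 and -0.67 in wild type and -1.10 and -0.95 in mutants. How much of the Pou4f1 and Tlx3 values came from sensory neurons caught in either region was not tested.

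**Figure D4:**
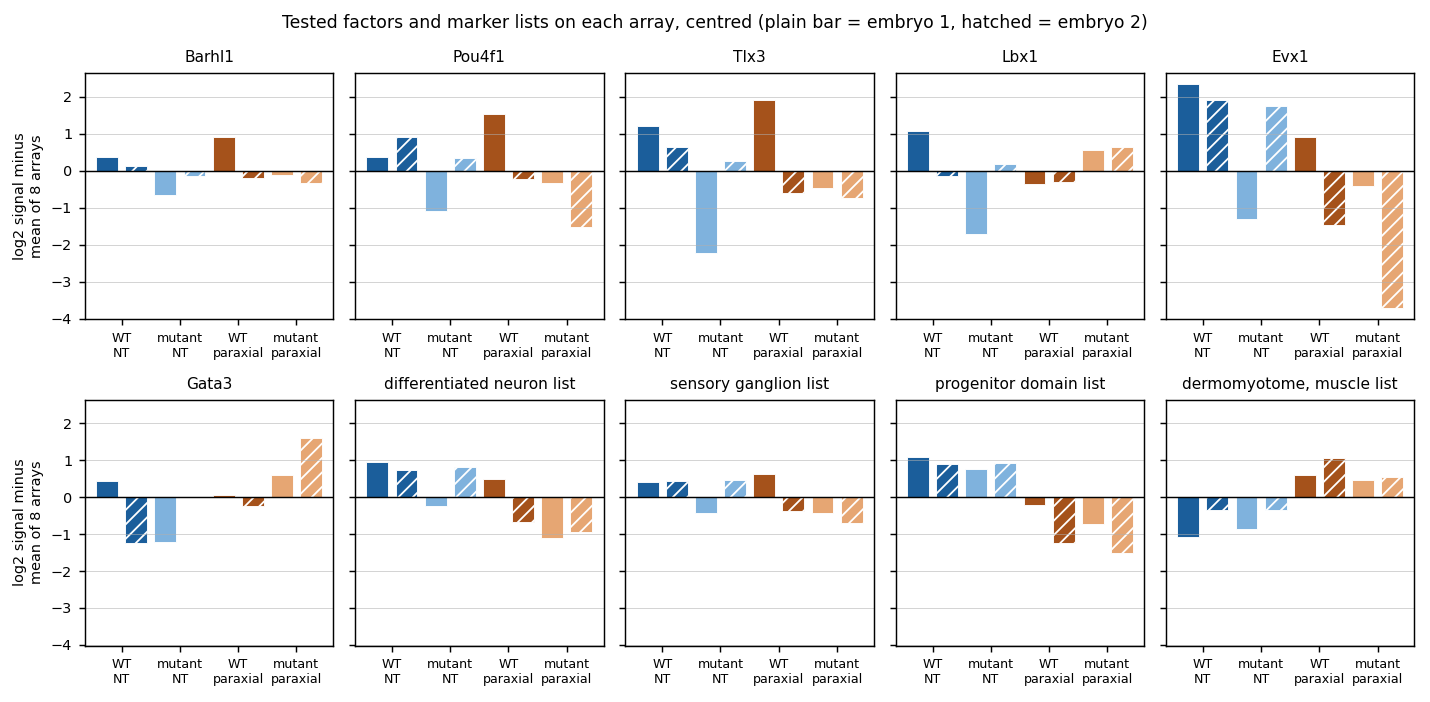
Log2 signal minus the mean of the 8 arrays (vertical axis) for each of the 6 tested factors and as the mean over the tested genes of 4 marker lists, with plain bars for embryo 1 and hatched bars for embryo 2 of each group. The progenitor domain list stays between 0.77 and 1.08 on the 4 neural tube arrays, while Tlx3, Lbx1, Evx1 and the neuron list dip in mutant neural tube 1.

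Lists chosen as other factors of the dorsal and ventral interneuron classes give the setting. Their genes are not confined to interneurons. Isl1, Lhx3 and Lhx4 are also on the motor neuron list, and Nkx2-9 is also a factor of ventral progenitors. Of 19 dorsal class factors besides those above, 16 were tested, and over both genotypes 5 were higher in neural tube and 2 lower, with a median difference of 0.58. The higher ones were Prdm8 (3.20 ± 0.36, limma adjusted p = 0.0039), the cut homeodomain factors Onecut2 (1.83 ± 0.23) and Onecut1 (1.82 ± 0.33), Otp (2.39 ± 0.60, with 1 paraxial reading not well above background) and Gbx1 (0.42 ± 0.11). Foxp2 (-1.17 ± 0.19) and Wt1 (-3.07 ± 0.50) were lower. Of 17 ventral class factors 15 were tested, 8 higher and 1 lower with a median of 1.05. Among the higher ones were the LIM homeodomain factors Lhx3 (2.23 ± 0.34) and Lhx4 (2.17 ± 0.33), Sp8 (1.48 ± 0.22), Sox21 (0.94 ± 0.16) and Nkx2-9 (2.07 ± 0.40), while Uncx was lower (-1.07 ± 0.18). Lhx5, another LIM factor, was called too but was well above background on 1 of 4 paraxial arrays, and with dim readings at the floor it was 1.79 ± 0.41 higher in neural tube (limma adjusted p = 0.0301). The V2 factor Vsx1 was well above background in wild-type neural tube alone, at least 1.47-fold higher there than in wild-type paraxial tissue. That difference passed with readings as measured (limma adjusted p = 0.0250) but not with dim readings at the floor (adjusted p = 0.211). Over both genotypes it no longer passed at the floor either (limma adjusted p = 0.218). Lhx5 and Vsx1 passed the filter on dim probes through wild-type neural tube alone, the group where they were high. The filter thus favoured their differences from the other groups, which are given as description only. At the floor 6 of the 15 ventral factors were higher and 1 lower, and 6 of the 16 dorsal factors higher and 2 lower. In this contrast 12.0% of all genes were called, and whether these lists differ from the 6 tested members was not tested.

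Between genotypes none of these class factors was called. In neural tube 12 of 16 dorsal factors had a negative difference (median -0.41) and 11 of 15 ventral ones (median -0.54), against a median of -0.01 over all genes. With dim readings at the floor the ventral median was -0.33. Mutant neural tube 2 lay within the wild-type range in both lists: the centred mean of the dorsal list was 0.66 and 0.24 in wild-type and -0.36 and 0.53 in mutant neural tube, and that of the ventral list 1.00 and 0.43 against -0.17 and 0.69. Among the ventral factors those with the smallest p were Vsx1 (at least 1.35-fold lower in mutants), Tal1 (-0.90 ± 0.43) and Gata2 (-0.99 ± 0.51), each with a limma adjusted p of 0.921. The difference of Vsx1 was favoured by the filter, which it passed through wild-type neural tube alone. With dim readings at the floor it was -0.43 ± 0.34. Tal1 and Gata2 act with Gata3 in V2b neurons, and their genotypes did not overlap in neural tube, while those of Gata3 did. Gata2 was at 9.13 and 8.91 in wild-type and 7.19 and 8.86 in mutant neural tube. The dorsal factors with the smallest p were Lhx2 (-1.16 ± 0.73), Tlx1 (-0.34 ± 0.26) and Gbx1 (0.29 ± 0.24), each with a limma adjusted p of 0.921.

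In paraxial tissue the dorsal list had a median of -0.43 and the ventral list of -0.17. Lmx1b (1.51 ± 0.47) and the dI1 LIM factor Lhx2 (2.16 ± 0.73) stood higher in mutants, each with a limma adjusted p of 0.995. Lhx2 was at 9.96 and 8.56 in wild-type and 10.46 and 12.37 in mutant paraxial tissue. Like Gata3 it was highest in mutant paraxial tissue 2, as was Lmx1b (14.97). Both were higher there than on any neural tube array (at most 10.93 for Lhx2 and 13.16 for Lmx1b). Which cells gave these readings was not tested.

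Progenitor domain factors, which act one step before most of the class factors, numbered 24, of which 23 were tested. In neural tube 12 had a positive and 11 a negative genotype difference, with a median of 0.03, and the difference between this list and the class factors was not tested. Motor neuron genes were negative in 9 of 9 with a median of -0.66, and differentiated neuron genes in 13 of 17 with a median of -0.47. The motor neuron list shares Isl1 with the dorsal list and Lhx3 and Lhx4 with the ventral list. None of these was called. The neuron marker Robo3, a guidance receptor of commissural axons, was at 14.14 and 12.73 in wild-type and 9.27 and 12.69 in mutant neural tube. As with Tlx3 and Evx1, its low reading was that of mutant neural tube 1. The part of the neuron content of that array in the members' differences was not tested.

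The genes whose pattern over the 8 arrays lay closest to each factor, by the root mean square difference of centred log2 values, are given for description. For Evx1 the nearest was Otp (0.57), a homeodomain factor also of the dorsal list, followed by Cpeb2 (0.67) and Tbc1d9 (0.69). Otp was at 12.53 and 11.76 in wild-type and 10.13 and 11.93 in mutant neural tube, and at 11.50 and 8.85 in wild-type and 9.15 and 7.30 in mutant paraxial tissue. For Barhl1 they included C77609 (0.17) and LOC630320 (0.17), for Lbx1 they were Vmn1r167 (0.29), LOC100047651 (0.29) and Gm3289 (0.33), and for Gata3 Olfr160 (0.36), Rnase4 (0.37) and a probe of an unnamed interval (0.37). Pou4f1 was closest to Olfr419 (0.32) and Tlx3 to Cd300ld (0.47), and the next nearest 2 of both were the same 2 probes of unnamed intervals. Among the tested factors themselves, Pou4f1 ranked 12 among all genes in closeness to Tlx3 (0.62). These distances are descriptions over 8 arrays of 4 embryos, and genes with a small range lie close to many others.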

How the data were processed

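Each deposited file holds 1 array's intensity per spot on a linear scale, as the processed red-channel (Cy5) signal from Agilent Feature Extraction 11.0.1.1, per the submitters' processing notes and the file headers. Per the labels' protocols RNA was isolated with the PicoPure kit and cDNA labelled with the Kreatech ULS kit. All 8 arrays lay on 1 slide and 1 scan, replicate 1 in row 1 and replicate 2 in row 2. The series-wide values the authors deposited differ from these intensity values by at most 0.497% and served as an alternative.

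Control spots (3671 of 62976) and outlier spots were left out, and spots of a probe averaged. The log2 signal was scaled by subtracting each array's 75th percentile, with a constant added back. A probe was kept if well above background on each array of 1 or more groups (42754 probes), and the brightest stood for each of 28940 genes. With limma 3.58.1 in R 4.3.3 (data.table version 1.17.8), 4 group means were fitted with a random embryo effect (duplicateCorrelation, 0.603), and p-values adjusted by Benjamini-Hochberg over all genes at 0.05. Where a gene was well above background on no array of a group, a fold is given as "at least", against its own value or the dimmest signal called well above background, whichever was higher. The code was tested on simulated data. With 2 arrays per group, their number limits the precision.

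The members, the marker lists and the naming rule were chosen with earlier results of these data known. All members are named; of a list, its called genes, or else up to 3 with the smallest p; for each tested member, the 3 genes nearest in pattern. A few genes that this rule names are not reported here. Met was chosen after its values were seen. The labels give the embryo shared by 2 tissues, whose deviations from the group means correlated (r = 0.562 in wild type, 0.607 in mutants). Replicate numbers pair no embryos across genotypes. The array annotation has no transcript regions, so exons and untranslated regions are not given.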

Additional observations from a re-analysis of the deposited data

Results flagged for a closer look

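The tissue difference of Lbx1 ran in opposite directions in the embryos of the 2 genotypes. Neural tube stood above paraxial tissue by 1.42 and 0.16 (scaled log2) in the wild-type embryos and by -2.26 and -0.46 in the mutant embryos. The difference between genotypes was -2.15 ± 0.69 (limma, unadjusted p = 0.0175, adjusted p = 0.911), so it did not pass. The homeobox probe of Lbx1 did not show it: there the wild-type embryos gave 0.85 and -0.97 and the mutants -2.24 and -0.27.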

How the results depend on the processing

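No member passed the limma test in any of the 6 contrasts as first fitted. Over the alternatives that keep all arrays, 444 of 456 member values kept their direction and their side of the threshold, 7 reversed and 5 newly passed. The 5 were all Gata3 between tissues: 2 with median scaling (mutants -1.71, both genotypes -1.01), 2 with normexp (-1.03 and -0.72) and 1 with trend and robust moderation (-1.70). The adjusted p of Gata3 was then 0.0165 to 0.0479. With dim readings raised to the array floor, added after the data were seen, no member value changed direction or side. The reversed values were Pou4f1 between tissues in wild type with cyclic loess (0.0136), and with normexp Tlx3 between tissues over both genotypes (0.0726), Gata3 between genotypes in neural tube (0.18) and the interaction of Barhl1 (0.10). With the mean of both probes the tissue difference of Barhl1 was 0.74 in wild type, 0.10 in mutants and 0.42 over both, because the probes differ in sign there. The cause of the other reversals was not tested.

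Counts of called genes moved more. Between tissues they were, in wild type, in mutants and over both genotypes, 709, 1694 and 3459 as first fitted, and 362, 610 and 2298 with no filter on dim probes. With no replicate block (no embryo in the model) they were 4, 0 (limma, where 2859 genes had p below 0.05 before adjustment) and 593. A fixed replicate block for the embryo gave 51, 211 and 1973, and the replicate number as a block 414 and 1025 in the single genotypes. The replicate block changed no call of a member. In wild type normexp gave 1510 and trend and robust moderation 1089. The interaction gave 4 with cyclic loess in limma. The number pairs across genotypes correlated at 0.291 in both tissues, and are not taken as pairs.

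Fits that leave out an array or an embryo held the embryo correlation at 0.603, and a lone array was assumed to vary like the other groups. With the 3 fits that also set dim readings at the floor, the counts ran from 31 to 743 in wild type, from 0 to 1589 in mutants, from 794 to 3497 over both genotypes, from 0 to 16 between genotypes in paraxial tissue, from 0 to 19 for the interaction and from 0 to 2 for calls of members (Gata3 and Evx1, 10 in all of 540 member values, while 100 reversed). Tissue differences in wild type ran from -1.19 to 1.15 for Pou4f1, -0.82 to 1.37 for Tlx3, -0.58 to 0.39 for Barhl1 and -1.06 to 0.45 for Gata3. In mutants they ran from -0.75 to 1.85 for Pou4f1, -1.75 to 1.00 for Tlx3, -0.54 to 0.18 for Barhl1 and -0.89 to 5.46 for Evx1. Over both genotypes they ran from -0.38 to 0.92 for Pou4f1, -0.75 to 0.17 for Lbx1, -0.74 to 0.64 for Tlx3 and -0.38 to 0.10 for Barhl1. Between genotypes in neural tube the range was -2.09 to 0.0486 for Pou4f1, -4.43 to 0.61 for Evx1 and -1.04 to 0.64 for Gata3, and in paraxial tissue -4.36 to 0.78 for Evx1. The interaction ran from -0.73 to 1.87 for Pou4f1, -2.02 to 0.73 for Tlx3, -0.57 to 0.40 for Barhl1 and -3.30 to 3.05 for Evx1. In neural tube Tlx3, Lbx1 and Barhl1 stayed below 0 in all of these fits.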
